A study of Mus musculus with 6 samples.

Results

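Zeb1 is a zinc-finger repressor that silences epithelial genes, and it does so by bringing chromatin enzymes to its target promoters. The genes of those enzymes were followed here in 393P, a mouse lung cancer cell line. A set of 48 genes was taken: corepressors and histone deacetylases, several of them known partners of Zeb1, the nucleosome remodellers NuRD and SWI/SNF, the Polycomb complexes, the enzymes that write and remove DNA methylation, and the HMGA architectural proteins. Members were every array probe set that the platform annotation assigns to just 1 of these genes. They came to 107 of the 45101 probe sets on the array and covered 46 of the 48 genes, beside 18193 genes that the array covers in this way. Ncor1, a nuclear receptor corepressor, and Hmga1 had no such probe set and are not analysed here.

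The 6 samples were cultures of 393P cells, 3 with the empty pcDNA control vector and 3 with a vector that expresses Zeb1 constitutively after stable transfection, each on its own Affymetrix array. The labels name no other genotype or treatment, and they do not state the number of transfections or clones per group. All p-values rest on the spread between these cultures, which may be technical. The question was which of these chromatin genes differ in RNA level once Zeb1 is expressed.

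CtBP proteins bind short motifs in repressors such as Zeb1 and hold a complex with histone deacetylases and the demethylase Kdm1a, which strips active marks from promoters. Polycomb repressive complex 2 methylates lysine 27 of histone H3 and Polycomb repressive complex 1 reads that mark and ubiquitinates histone H2A, so that together they keep developmental genes off. DNA methyltransferases add methyl groups to CpG sites and TET dioxygenases oxidise them, and both systems are known for locking or releasing epithelial genes during epithelial-mesenchymal transition.

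Values are log2 signals, scaled by the authors so that each array has the same trimmed mean, and signals under log2 4.45 were set to that floor. Zeb1 checked the labels: on its brightest probe set the signals were 4.45, 4.45 and 4.50 on the control arrays and 9.71, 9.59 and 9.78 on the Zeb1 arrays. Arrays of 1 group correlated at r = 0.983 to 0.985 across tested genes and arrays of different groups at 0.864 to 0.87; genes are not independent replicates. The simple-epithelial keratins Krt8 (14.47), Krt18 (14.69) and Krt19 (13.46) were bright in control cells and stayed so in Zeb1 cells (14.32, 14.72 and 13.42), whereas Krt7 (14.33 to 6.01), the adhesion protein Epcam (13.72 to 6.66) and E-cadherin, Cdh1 (14.18 to 10.17), were lower there. The summed linear signal of all 11 epithelial markers was 110000 to 117000 in control and 58100 to 62300 in Zeb1 cells, and its part in the members' changes was not tested. The lung lineage factor Nkx2-1 (4.79) and the club cell protein Scgb1a1 (4.83) lay close to the floor in control cells. The other lung markers were higher there: Sftpb read 8.08 in control and 8.44 in Zeb1 cells, Sftpc 6.31 and 6.30, and Foxj1 6.19 and 4.89. Of 8 leukocyte markers 7 were on the array, and their summed linear signal was 1440 to 1670 in control and 5060 to 5450 in Zeb1 cells; its part was not tested either. Cd14, the brightest of them, made up most of that sum in both groups and went from 9.86 to 12.15. Csf1r (7.86 and 7.60) and Laptm5 (7.84 and 8.20) lay above the pooled median of all signals, 6.32, in both groups. Ptprc, Cd3e and Itgam lay below it in both, and Adgre1 read 6.12 in control and 6.33 in Zeb1 cells.

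The promoters of the 6 members with called changes of at least 2-fold are shown first, because Zeb1 is known to bind E-boxes of the form CACCTG. The windows are the 250 bases before the RefSeq transcription start of assembly GRCm38.p6, read 5′ to 3′ along the gene, with each CACCTG or its reverse complement CAGGTG in capitals. Those that fell were Dnmt3b, a de novo DNA methyltransferase, at chr2:153649199-153649448 on the + strand, and Cbx7, a Polycomb reader, at chr15:79932647-79932896 on the - strand. Those that rose were the remodeller ATPase Smarca2, at chr19:26604910-26605159 on the + strand, and the deacetylase Hdac5, at chr11:102230173-102230422 on the - strand. They also included the dioxygenase Tet2, at chr3:133544391-133544640 on the - strand, and the architectural protein Hmga2, at chr10:120476470-120476719 on the - strand.
Dnmt3b: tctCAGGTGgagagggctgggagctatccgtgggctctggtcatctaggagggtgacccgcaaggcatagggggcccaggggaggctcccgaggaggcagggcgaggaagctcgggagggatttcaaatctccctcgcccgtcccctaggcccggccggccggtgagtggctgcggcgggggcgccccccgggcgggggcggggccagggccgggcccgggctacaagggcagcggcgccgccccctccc
Cbx7: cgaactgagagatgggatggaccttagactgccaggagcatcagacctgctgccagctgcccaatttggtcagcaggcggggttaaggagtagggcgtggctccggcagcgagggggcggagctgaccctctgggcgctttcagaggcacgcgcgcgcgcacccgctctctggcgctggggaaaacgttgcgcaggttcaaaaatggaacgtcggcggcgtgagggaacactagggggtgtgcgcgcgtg
Smarca2: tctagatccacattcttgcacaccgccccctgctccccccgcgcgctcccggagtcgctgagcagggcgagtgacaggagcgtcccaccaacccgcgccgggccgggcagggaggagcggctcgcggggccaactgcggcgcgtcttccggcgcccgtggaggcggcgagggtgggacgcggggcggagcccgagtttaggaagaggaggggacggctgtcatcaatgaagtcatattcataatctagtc
Hdac5: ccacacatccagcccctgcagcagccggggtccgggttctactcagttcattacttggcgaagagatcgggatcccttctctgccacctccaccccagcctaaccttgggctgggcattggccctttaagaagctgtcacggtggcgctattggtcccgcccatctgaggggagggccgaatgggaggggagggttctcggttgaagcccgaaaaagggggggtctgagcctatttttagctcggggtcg
Tet2: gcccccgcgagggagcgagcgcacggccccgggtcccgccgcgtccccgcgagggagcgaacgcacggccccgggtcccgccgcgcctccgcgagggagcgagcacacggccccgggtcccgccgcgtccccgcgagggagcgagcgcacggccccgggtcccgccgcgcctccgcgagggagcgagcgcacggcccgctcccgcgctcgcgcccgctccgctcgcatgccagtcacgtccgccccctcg
Hmga2: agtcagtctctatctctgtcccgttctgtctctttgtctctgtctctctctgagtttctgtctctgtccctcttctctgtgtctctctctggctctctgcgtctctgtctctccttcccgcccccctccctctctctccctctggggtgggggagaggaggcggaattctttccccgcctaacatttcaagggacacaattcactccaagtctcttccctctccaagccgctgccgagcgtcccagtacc

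Of these 6 windows only that of Dnmt3b held an E-box, which began 247 bases before the start. RefSeq promoters were listed for 42 of the 48 members, 58 in all, and 5 of the 58 (8.62%) held the motif, against 17.2% of all 32851 promoters in windows of the same length. Besides Dnmt3b these belonged to Hdac6, Chd4 and Ezh1, whose window held 2 motifs, 77 and 57 bases before the start. Member promoters were CpG-rich, with a median of 21 CpG sites in the window against 6 over all promoters. A match describes the letters in the window and is not a binding site.

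Of the 46 genes with a probe set, 44 passed the filter on low signals, and 24 of these changed at an adjusted p below 0.05, 12 up and 12 down. That share of 54.5% is close to the background, since 50.5% of the 11893 genes tested were called (26.4% up, 24.1% down). The median log2 change was -0.08 over the members and 0.01 over all genes, and the median size was 0.32 against 0.36. The groups of arrays did not overlap for 29 of the 44 members, beside 58.2% of all genes. Changes of at least 2-fold were called in 6 members, 4 up (Smarca2, Hdac5, Tet2 and Hmga2) and 2 down (Dnmt3b and Cbx7), where 15.8% of all genes passed that limit (9.01% up, 6.8% down). At 1.5-fold or more 10 members were called, beside 29.4% of all genes. Hdac8 (6.22 in control and 6.10 in Zeb1 cells) and Tet3 (5.16 and 5.21) were too dim to be tested. Of the 107 member probe sets 84 were tested, and 19 rose and 16 fell, beside 46.1% of all tested probe sets called. The array median was reached on all 6 arrays by 40 of the 44 members and in the control group alone by Cbx7. Smarca2 reached it on 2 control and 3 Zeb1 arrays, and Dnmt3b and Tet1 each on 3 control arrays and 1 Zeb1 array.

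**Figure D1:**
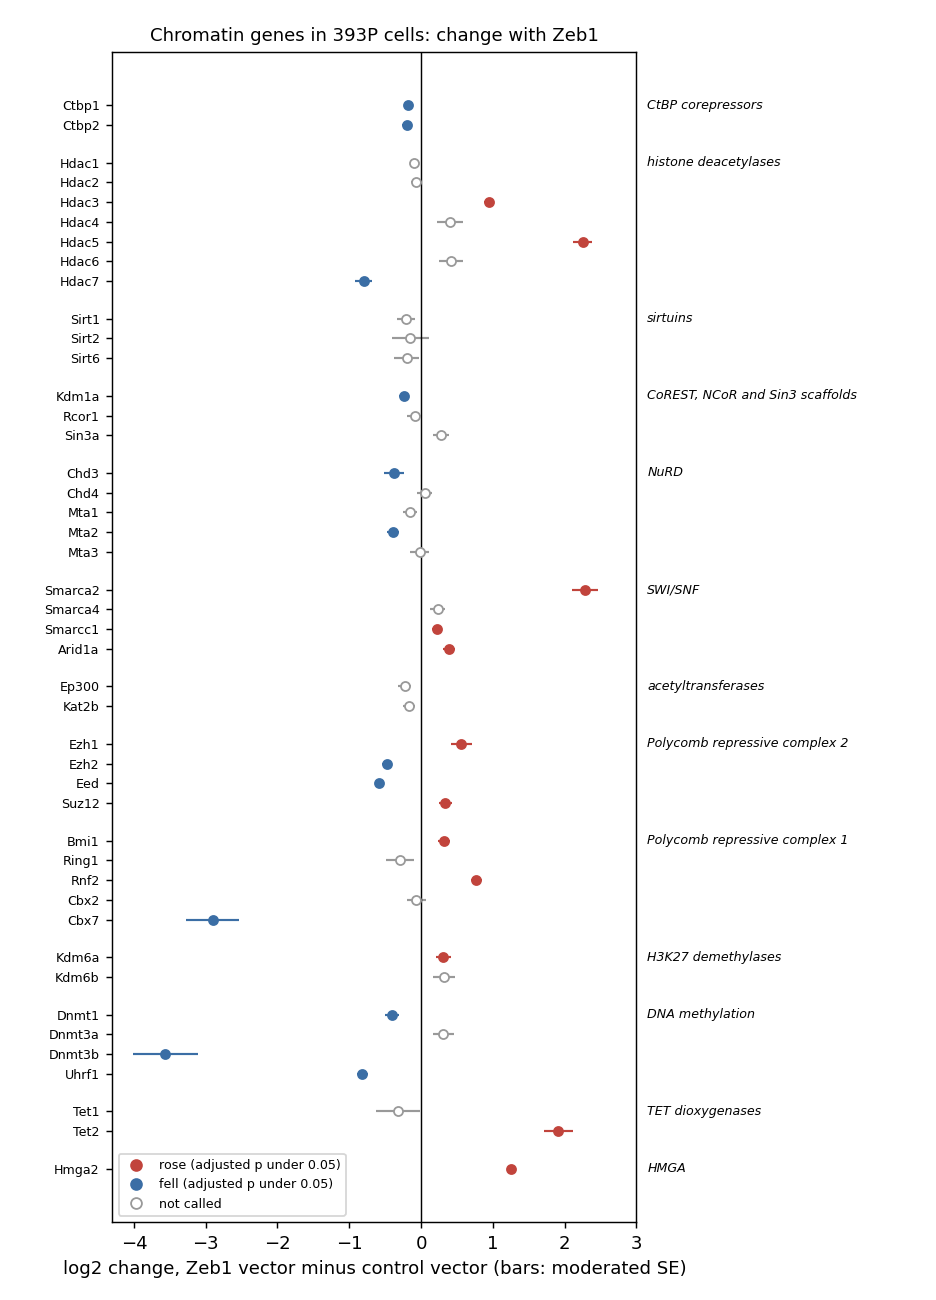
Log2 change (Zeb1 vector minus control vector) of the 44 tested members with limma's moderated standard error, grouped by role, 3 arrays per group. Filled points passed an adjusted p of 0.05: 12 lie to the right of 0 and 12 to the left, and Dnmt3b, Cbx7, Smarca2 and Hdac5 lie farthest out.

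Among the known partners of Zeb1 the abundant core machinery changed by less than 1.5-fold, and the changes above that size lay in 3 deacetylases. Of 12 tested partners 2 rose, 4 fell and 6 were not called, with a median log2 change of -0.09. The called share of 50% is that of the background, 50.5% of all genes. Among these partners only Hdac5 changed by 2-fold or more (8.33%), beside 15.8% of all genes.

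Ctbp1 read 12.54, 12.58 and 12.64 on the control arrays and 12.38, 12.42 and 12.42 on the Zeb1 arrays, a fall of 0.18 on the log2 scale (SE 0.0541, adjusted p = 0.0199). Ctbp2 read 12.33, 12.14 and 12.23 in control and 12.14, 11.98 and 11.98 in Zeb1 cells, with overlapping groups, and fell by 0.20 (SE 0.0719, adjusted p = 0.0438). Both corepressors were thus slightly lower, and both calls were fragile: adjusted p for Ctbp2 was 0.0513 when all probe sets were tested, and over the alternative settings adjusted p ran from 0.0143 to 0.0896 for Ctbp1 and from 0.0199 to 0.148 for Ctbp2. The call of Ctbp1 was lost without control vector replicate 3 (adjusted p = 0.0896) or Zeb1 vector replicate 1 or 2 (0.0669 and 0.0529), and that of Ctbp2 without control vector replicate 1 or 3 (0.148 and 0.101) or Zeb1 vector replicate 2 or 3 (0.14 and 0.114).

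Hdac1 and Hdac2, the class I deacetylases of the CtBP, Sin3 and NuRD complexes, were not called. Hdac1 signals were 12.01, 12.15 and 12.05 in control and 11.98, 11.97 and 11.96 in Zeb1 cells (log2 change -0.10, SE 0.0601, adjusted p = 0.206). For Hdac2 they were 12.22, 12.08 and 12.07 against 12.10, 12.00 and 12.05 (-0.07, SE 0.0638, adjusted p = 0.383), and its other tested probe set had a change of -0.08. Sirt1, an NAD-dependent deacetylase, read 9.06, 9.14 and 8.84 in control and 8.88, 8.86 and 8.69 in Zeb1 cells (-0.21, SE 0.121, adjusted p = 0.186), and the groups overlapped.

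Kdm1a, the lysine demethylase of the CoREST complex, went from 11.63, 11.63 and 11.50 to 11.33, 11.37 and 11.33, a fall of 0.24 (SE 0.0651, adjusted p = 0.0104) with no overlap between the groups. Its dimmer probe set had a change of -0.05 (adjusted p = 0.7), and the call was lost with the mean of its probe sets (adjusted p = 0.0909). Smarca4, the Brg1 ATPase of SWI/SNF, read 11.46, 11.71 and 11.38 in control and 11.59, 11.74 and 11.90 in Zeb1 cells (0.23, SE 0.104, adjusted p = 0.1), with overlapping groups. It passed as a rise without control vector replicate 2 (0.32, adjusted p = 0.0224) or Zeb1 vector replicate 1 (0.30, adjusted p = 0.0492).

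The 3 deacetylases that moved did so clearly, although Hdac5 and Hdac3 were each read by only 1 probe set. Hdac5, a class IIa deacetylase that shuttles between cytoplasm and nucleus, went from 7.30, 7.13 and 7.13 to 9.56, 9.33 and 9.43, which is 4.76-fold higher (log2 change 2.25, SE 0.129, adjusted p = 3.35e-07). Hdac3, the catalytic subunit of the NCoR complex, went from 10.83, 10.84 and 10.93 to 11.75, 11.84 and 11.83, 1.92-fold higher (0.94, SE 0.0658, adjusted p = 1.37e-06). In the opposite direction Hdac7, another class IIa enzyme, went from 10.27, 10.57 and 10.21 to 9.46, 9.48 and 9.70, 1.75-fold lower (-0.80, SE 0.117, adjusted p = 0.000243), and its other probe set also fell, by 0.77. The groups did not overlap for any of the 3, which was so for 58.2% of all genes, and each kept its call under all 14 alternatives. Hdac4 (0.40, adjusted p = 0.0944) and Hdac6 (0.42, adjusted p = 0.058), a cytoplasmic tubulin deacetylase, were not called. With the mean of its probe sets Hdac4 passed as a rise (0.64, adjusted p = 0.0421), and without control vector replicate 2 so did Hdac6 (0.60, adjusted p = 0.00791).

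**Figure D2:**
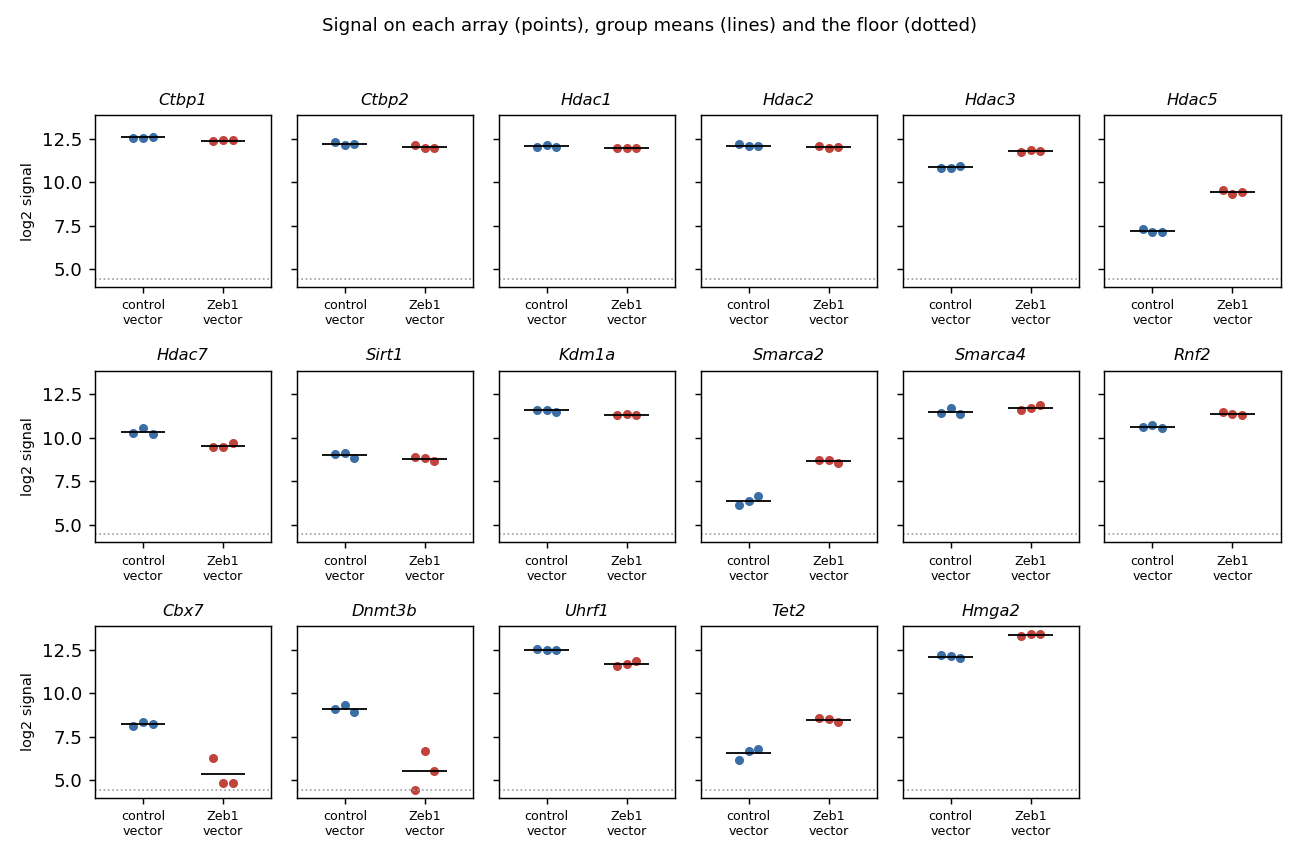
Log2 signal on each array for the 17 members given in full by the naming rule, control vector in blue and Zeb1 vector in red, 3 arrays each, with lines at the group means and a dotted line at the floor of 4.45. Ctbp1, Ctbp2, Hdac1 and Hdac2 sit near 12 in both groups, and for Dnmt3b and Cbx7 the Zeb1 arrays are low and spread out.

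The scaffolds and remodellers outside that circle showed a single large change. Smarca2, which encodes the Brm ATPase that can replace Brg1 in SWI/SNF, went from 6.14, 6.35 and 6.66 in control to 8.72, 8.72 and 8.55 in Zeb1 cells, 4.85-fold higher (log2 change 2.28, SE 0.184, adjusted p = 4.07e-06). The control signals lay close to the pooled median of all values, 6.32, and the other probe set of the gene was too dim to test (5.77 in control and 5.68 in Zeb1 cells), so the rise rests on 1 probe set. Of the other SWI/SNF members Arid1a, the DNA-binding subunit of the BAF form, rose by 0.39 (adjusted p = 0.00255) and the core subunit Smarcc1 by 0.22 (adjusted p = 0.0252). The dimmer probe set of Arid1a was not called (0.19, adjusted p = 0.363), nor were those of Smarcc1 (0.23 and -0.10, adjusted p = 0.0816 and 0.704). The call of Smarcc1 was lost in 6 of 14 alternatives. Among them were the mean of its probe sets (0.12, adjusted p = 0.364) and leaving out control vector replicate 1 or 2 (adjusted p = 0.0587 and 0.0606) or Zeb1 vector replicate 3 (0.0717).

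Of 5 NuRD members 2 fell and 0 rose, and the range was -0.39 to 0.05. The called share of 40% stands beside 50.5% of all genes (26.4% up, 24.1% down). Among 8 further NuRD genes tested, 1 rose and 1 fell, with a wider range of -0.59 to 0.73. Mta2, a subunit that links the deacetylases to the complex, fell by 0.39 (SE 0.0845, adjusted p = 0.00303). The ATPase Chd3 fell by 0.38 (adjusted p = 0.0447), a call lost in 6 of 14 alternatives, including without control vector replicate 1 or 2 (0.0748 and 0.148) and without Zeb1 vector replicate 2 or 3 (0.119 and 0.144). Its paralogue Chd4 had a change of 0.05 (adjusted p = 0.737). Mta1 (-0.16) and Mta3 (-0.02) were not called. Among the scaffolds Rcor1, the CoREST protein, had a change of -0.09 and Sin3a, which carries the Sin3 deacetylase complex, of 0.28, and neither was called (adjusted p = 0.53 and 0.0598), although 1 probe set of Rcor1 fell by 0.80 and 1 of Sin3a rose by 0.34. The acetyltransferases Ep300 (-0.23, adjusted p = 0.0676) and Kat2b (-0.17, adjusted p = 0.101) and the deacetylases Sirt2 (-0.15) and Sirt6 (-0.20) were not called either. Ep300 passed as a fall without Zeb1 vector replicate 3 (-0.31, adjusted p = 0.0151).

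Hmga2, an architectural protein that bends AT-rich DNA and is known as an oncofetal gene of mesenchymal cells, was the member with the smallest p. Its signals went from 12.19, 12.14 and 12.03 to 13.31, 13.39 and 13.41, a 2.37-fold rise (1.25, SE 0.0596, adjusted p = 9.23e-08). All 4 of its probe sets rose, by 1.23 to 1.65. With a control mean of 12.12 it was a bright transcript before Zeb1 was expressed.

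Of 11 tested Polycomb members and histone H3 lysine 27 demethylases 5 rose, 3 fell and 3 were not called, with a median log2 change of 0.31. The called share of 72.7% stands beside the 50.5% of all genes and 43.5% of 23 further Polycomb genes tested. At 2-fold or more only Cbx7 was called (9.09%), beside 15.8% of all genes. The calls of Ezh1, Suz12 and Kdm6a were lost in at least 1 alternative.

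Within Polycomb repressive complex 2 the members went both ways by less than 1.5-fold each. Ezh2, the catalytic subunit of dividing cells, fell from 12.10, 12.18 and 12.08 to 11.73, 11.56 and 11.63 (-0.48, SE 0.0667, adjusted p = 0.000183). Its paralogue Ezh1, known from resting cells, rose from 7.68, 7.97 and 7.69 to 8.51, 8.24 and 8.29 (0.56, SE 0.149, adjusted p = 0.0098). Eed, which binds the methylated lysine, fell from 11.91, 11.95 and 11.91 to 11.38, 11.37 and 11.28 (-0.58, SE 0.0615, adjusted p = 2.83e-05). Suz12, the scaffold of the complex, rose by 0.34 (adjusted p = 0.0105), and its 5 tested probe sets all had positive changes, from 0.29 to 0.38, of which 2 were called. The groups of arrays did not overlap for any of the 4 genes, which was so for 58.2% of all genes. The other tested probe set of Ezh1 had a change of 0.18 (adjusted p = 0.48), and its call was lost with the mean of probe sets (0.37, adjusted p = 0.0523).

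In Polycomb repressive complex 1 the E3 ligase rose and a reader fell. Rnf2, the Ring1B ubiquitin ligase, went from 10.62, 10.72 and 10.55 to 11.51, 11.36 and 11.34, 1.71-fold higher (0.77, SE 0.0786, adjusted p = 2.06e-05), and its second tested probe set rose by 0.74. Bmi1, the partner that stimulates the ligase and is known as a target of the miR-200 microRNAs, rose by 0.32 (SE 0.085, adjusted p = 0.0096). Its other tested probe set was not called (0.17, adjusted p = 0.272), and there the groups overlapped. The related ligase Ring1 had a change of -0.29 (adjusted p = 0.243).

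Cbx7, a chromodomain reader of the methylated lysine, went from 8.14, 8.36 and 8.24 on the control arrays to 6.31, 4.86 and 4.88 on the Zeb1 arrays (log2 change -2.90, SE 0.369, adjusted p = 0.000102). All 3 Zeb1 arrays lay below the pooled median, near the range of unspecific signal, and with the floor raised to that median the change was -1.92. The probe set passed the filter on low signals through the control arrays alone; with no filter its adjusted p was 0.00905. The other tested probe set was dim in both groups (6.34 and 6.13) and was not called (-0.21, adjusted p = 0.599), so that the mean of the probe sets gave -1.55 (adjusted p = 0.000589). Cbx2, another reader, had a change of -0.07 (adjusted p = 0.702). The demethylase Kdm6a, which removes the Polycomb mark, rose by 0.31 (adjusted p = 0.0259), a call lost in 5 of 14 alternatives, among them without control vector replicate 1 or 3 (0.0569 and 0.093) and without Zeb1 vector replicate 1 or 3 (0.075 and 0.0612). Kdm6b had a like change of 0.32 and was not called (adjusted p = 0.106).

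**Figure D3:**
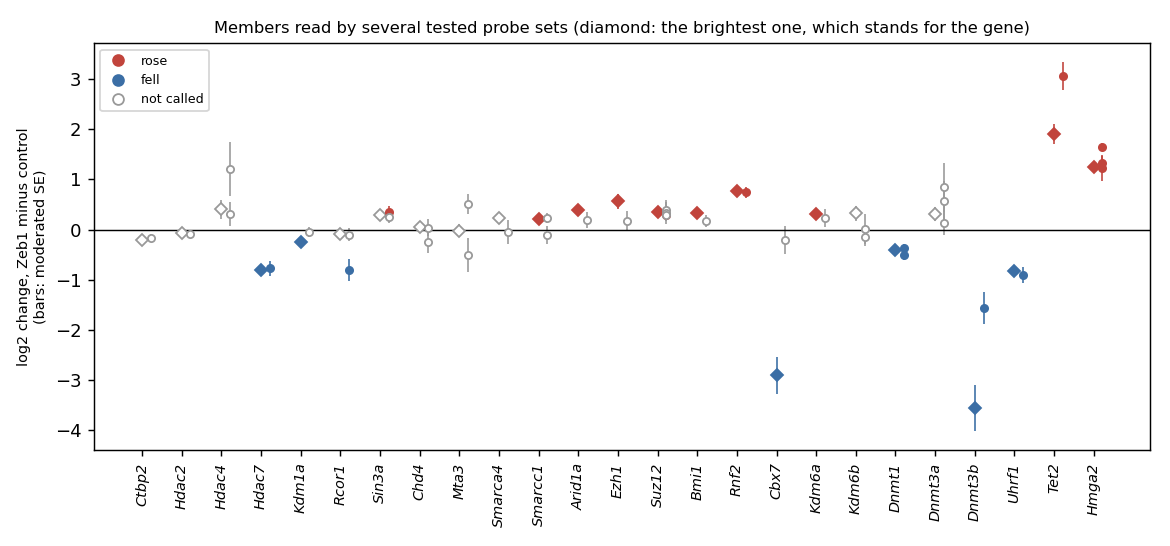
Log2 change with moderated standard error for each tested probe set of the 25 members that had several; the diamond is the brightest, which stood for the gene. Probe sets called in opposite directions were found for 0 of the 25 members, and the widest gaps are those of Cbx7 (-2.90 and -0.21) and Dnmt3b (-3.56 and -1.56).

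The DNA methylation genes held the largest fall among all members. Of 6 tested 1 rose and 3 fell, with a median of -0.37, and 2 of the 6 changed by at least 2-fold. The background shares are 50.5% called and 15.8% at 2-fold. Dnmt3b, Uhrf1 and Dnmt1 fell and Tet2 rose.

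Dnmt3b, a de novo methyltransferase, read 9.08, 9.32 and 8.96 in control cells and 4.45, 6.70 and 5.52 in Zeb1 cells, where replicate 1 was at the floor. Its change of -3.56 (SE 0.452, adjusted p = 9.81e-05) is a fall of 11.8-fold on this probe set and with that floor. The change was -2.67 with the floor at the pooled median and -2.56 with the mean of the 2 probe sets. The second probe set fell by 1.56 (adjusted p = 0.00278), from 7.68 to 6.12. The 3 Zeb1 cultures were spread over more than 2 log2 units, yet all lay below every control culture, and the change was -3.01, -4.14 and -3.55 without Zeb1 vector replicates 1, 2 and 3.

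Dnmt3a, the other de novo enzyme, was not called: 7.82, 7.63 and 7.91 in control and 7.99, 8.15 and 8.16 in Zeb1 cells (0.31, SE 0.145, adjusted p = 0.098), with no overlap between the groups. Without the intensity trend in the spread it passed as a rise (adjusted p = 0.0453). Uhrf1, which recognises hemimethylated DNA and brings the maintenance enzyme to it, went from 12.53, 12.51 and 12.50 to 11.57, 11.67 and 11.85, 1.76-fold lower (-0.82, SE 0.0745, adjusted p = 9.47e-06), and its other probe set fell by 0.90. The maintenance methyltransferase Dnmt1 fell by 0.41 (SE 0.099, adjusted p = 0.00563), and all 3 of its probe sets fell, by 0.37 to 0.51.

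Tet2, a dioxygenase that oxidises methylated cytosine, went from 6.20, 6.71 and 6.82 to 8.61, 8.52 and 8.34, 3.76-fold higher (1.91, SE 0.2, adjusted p = 2.56e-05). A second probe set read 4.45, 5.02 and 4.45 in control and 7.59, 7.85 and 7.67 in Zeb1 cells. It passed the filter on low signals through the Zeb1 arrays alone, so it had to differ and adds no support. Tet1 was dim in both groups (6.31 and 5.99) and not called (adjusted p = 0.429).

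Ezh2, Uhrf1 and Dnmt1 are known to follow the cell cycle, so genes of DNA replication and mitosis are given beside them. Of 20 tested 2 rose, 8 fell and 10 were not called, with a range of -0.81 (Mcm3, a replicative helicase subunit) to 0.52 (E2f1). The called share of 50% is close to the 50.5% of all genes (26.4% up, 24.1% down). Their summed linear signal was 117000 to 121000 on the control arrays and 103000 to 107000 on the Zeb1 arrays. Whether these genes have a part in the falls of Ezh2, Uhrf1 and Dnmt1 was not tested.

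Paralogues were compared directly, as the difference between 2 genes within each array. Of 11 pairs fixed for this, 9 had both genes tested, and in 5 the arrays of the groups did not overlap. For these 5 the exact two-sided permutation p was 0.1, or 0.18 adjusted over the 9 pairs, and no lower value is possible with 3 arrays per group. The difference of the log2 changes was 3.88 between Dnmt3a and Dnmt3b, 2.05 between Smarca2 and Smarca4, 1.04 between Ezh1 and Ezh2, -1.85 between Hdac4 and Hdac5 and 0.23 between Mta1 and Mta2. By contrast Ctbp1 and Ctbp2 moved by amounts within 0.02 of each other (exact permutation p = 0.7), Hdac1 and Hdac2 within 0.03 (exact permutation p = 0.8) and Kdm6a and Kdm6b within 0.01 (exact permutation p = 1). Between Chd3 and Chd4, whose own changes were -0.38 and 0.05, the difference was -0.43 with overlapping arrays (exact permutation p = 0.3). Leaving out 1 array moved it from -0.66 (without Zeb1 vector replicate 1, exact permutation p = 0.1, again the smallest possible) to -0.28 (without control vector replicate 2).

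**Figure D4:**
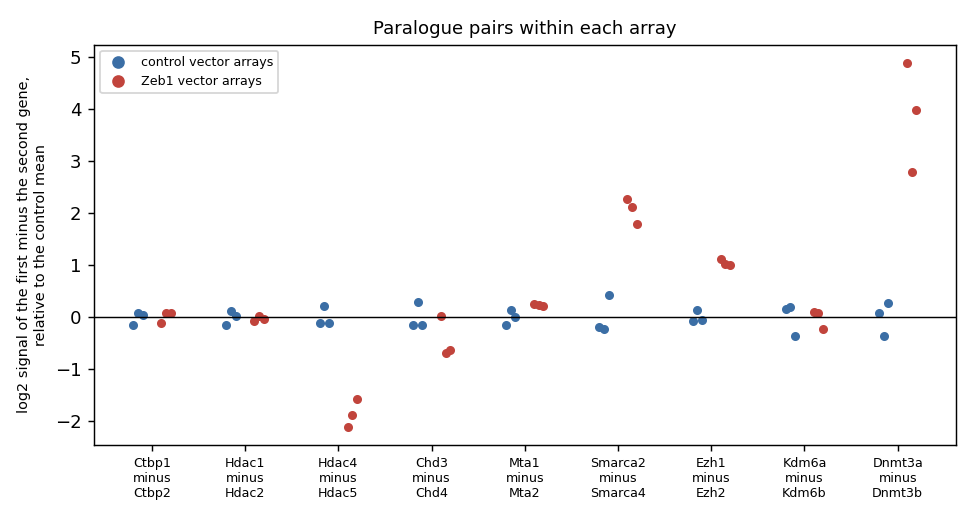
Log2 signal of the first gene minus that of the second within each array, set to 0 at the control mean, for 9 paralogue pairs with 3 control (blue) and 3 Zeb1 (red) arrays. The red points leave the blue ones in 5 pairs, farthest in Dnmt3a minus Dnmt3b, where the shift is 3.88, and overlap them in Ctbp1 minus Ctbp2.

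Other subunits of the same complexes were counted from lists of their own. Of 126 further genes 111 were tested: 24 rose, 26 fell and 61 were not called, with a median log2 change of -0.01. The called share was 45%, beside 50.5% of all genes (26.4% up, 24.1% down). By list it ran from 20% (HMG proteins) to 71.4% (deacetylases and sirtuins). Deacetylases and sirtuins outside the set counted 4 of 7 up and 1 down. Hdac9 and Sirt3 were among the rises and Hdac11 was the fall, and the limits of all of them are given below. Of 23 further Polycomb genes 2 rose and 8 fell, a called share of 43.5%.

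The largest rise among them was that of Hdac9, a class IIa deacetylase (2.77, from 4.59 to 7.36). Its control values were 4.45, 4.45 and 4.88, 2 of them at the floor and all under the pooled median of 6.32. It thus passed the filter on low signals through the Zeb1 arrays alone, so it had to differ. Bcor, a corepressor of the variant Polycomb complex 1, rose by 2.31 (6.61 ± 0.14 to 8.92 ± 0.104, SD, n = 3, adjusted p = 9.74e-07). Zbtb38, a reader of methylated DNA, rose by 1.47 (adjusted p = 1.1e-05). Next came the mitochondrial sirtuin Sirt3 (1.29, adjusted p = 0.0474) and Zbtb4, a second methyl-DNA reader (1.03, adjusted p = 0.00198). The call of Sirt3 rests on single arrays: its control values were 6.75, 4.82 and 6.66, and without control vector replicate 2 its change was 0.66 (adjusted p = 0.0903). Leaving out Zeb1 vector replicate 1 gave an adjusted p of 0.127, and leaving out replicate 2 of that group gave 0.141.

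The largest falls were in Gadd45b (-2.22, 10.38 ± 0.03 to 8.16 ± 0.145, SD, n = 3, adjusted p = 8.88e-08) and Gadd45a (-1.72, adjusted p = 0.000211), stress-response proteins linked to DNA demethylation. Hdac11 fell by 1.59 (adjusted p = 0.00219), and its Zeb1 values of 5.32, 5.28 and 6.12 all lay under the pooled median of 6.32. Its control values were 6.87, 7.07 and 7.55. Judged by that median, it passed the filter on low signals through the control arrays alone, so a fall was built in and its adjusted p adds no support. In Polycomb, Scmh1 fell by 1.13 and Pcgf6, a Ring partner of variant complexes, by 1.07 (12.11 ± 0.0345 to 11.04 ± 0.0604, SD, n = 3, adjusted p = 4.32e-07). Trim28, the corepressor of zinc-finger repressors in the list for lysine 9 methylation, and the heterochromatin protein Cbx5 each fell by 0.64.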

How the data were processed

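RNA of 6 cultures was hybridised to 1 Affymetrix array each, 3 control vector and 3 Zeb1 vector. The deposited table holds log2 values, which the authors made with MAS5 per the submitters' processing notes (no version is given in the sources used here); taken out of log2, all arrays had a trimmed mean signal of 500. Detection calls were not used here, and 2 missing values were set to the floor.

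Signals below the pooled 25th percentile (log2 4.45, linear 21.8) were raised to it. Probe sets with 1 gene symbol (34945) were tested if they reached their array's median on at least 3 arrays, which left 20594. Symbols were looked up by Entrez identifier in the RefSeq table of GRCm38.p6, which held 34741. Each gene took its brightest tested probe set, giving 11893 genes, 44 of them members; 84 of 107 member probe sets were tested, and 35 of these called, beside 46.1% of all tested probe sets. Groups were compared with limma 3.58.1 in R 4.3.3 (intensity trend, Benjamini-Hochberg over all tested, threshold 0.05), tested on simulated data. Gene values come from the fit over genes, values of further probe sets from the fit over probe sets. The median SE was 0.129; the number of arrays limits the precision.

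Every member is accounted for. Values per array were given by rule for called members with a log2 change of at least 0.58, for 7 Zeb1 partners, and, after their values were seen, for Ezh1, Ezh2, Eed and Dnmt3a. For other genes of the complexes, the 5 largest called changes in each direction were named; Trim28, Cbx5, Mcm3 and E2f1 were picked with their values in view. The members and lists were chosen with earlier results of these data known. Alternatives changed the floor, scaling, filter, spread model, pairing, choice of probe sets and arrays.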

Additional observations from a re-analysis of the deposited data

How the results depend on the processing

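Over the 14 alternatives, in which the floor, scaling, filter, spread model, pairing, choice of probe sets or 1 array was changed, the number of members called ran from 19 (no filter) to 26 (replicate block) against 24. With no filter these were 41.3% of the 46 members beside 29.5% of all genes, against 54.5% beside 50.5%; with the block, 59.1% beside 49.4%. Of the 24, 15 kept direction and call in every alternative in which they were tested. The filter on all 6 arrays left no value for Smarca2, Cbx7, Dnmt3b and Tet1. The other 9 (Ctbp1, Ctbp2, Kdm1a, Chd3, Smarcc1, Ezh1, Suz12, Kdm6a and Dnmt1) lost the call in at least 1 and 0 of the 24 changed sign. Suz12 and Dnmt1 lost it with no filter alone (adjusted p = 0.0509 and 0.052). Of the 20 members not called, 7 were called under at least 1 alternative: without control vector replicate 2, Hdac6 rose by 0.60 and Sin3a by 0.37. The change of Tet1 went from -0.32 to 0.00 with the floor at the pooled median, which lay above part of its signals. Chd4, near 0 at 0.05, turned sign to -0.05 with the mean of probe sets. With 1 array left out, Chd4 ran from -0.05 to 0.16, Sirt2 from -0.43 to 0.05, Rcor1 from -0.16 to 0.01 and Mta3 from -0.15 to 0.06. Among paralogue pairs, Kdm6a and Kdm6b differed by 0.03 under quantile normalization and by -0.19 to 0.10 with 1 array left out, Ctbp1 and Ctbp2 by -0.05 to 0.08, and Hdac1 and Hdac2 by -0.10 to 0.04. The cause was not tested.

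The labels do not say whether cultures with the same replicate number were paired. Deviations of same-numbered arrays correlated at 0.0385, -0.0273 and -0.0692 across genes, so no strong shared deviation was seen. With the replicate block 5877 genes were called in place of 6004, and 26 members in place of 24. Signal close to the floor limits Cbx7, Dnmt3b, Tet1, Tet3 and Hdac8.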
